A study of Homo sapiens with 12 samples.

Results

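The 10 genes described here encode abundant heterogeneous nuclear ribonucleoproteins (hnRNPs). They were listed by Ensembl identifier with no rule on measured values, but earlier results of these data were known when the list was made. All 10 were found among the 19580 genes of the ribosome footprint table. The cells were HAP1, a wild-type human line with a nearly haploid genome that goes back to the leukaemia line KBM-7. There were 4 groups of 3 biological replicates: untreated cells, cells given 4-thiouridine (4SU) at 5 uM for 18 h, cells that received 6 kJ/m2 of UVA light and recovered for 30 min, and cells given both. 4SU is a uridine analogue that is built into new RNA and can be crosslinked to bound protein by UVA. Values are RPKM, footprint reads scaled to the length of the listed transcript and to the size of the library. They rise and fall with the amount of an mRNA and with the ribosomes on each mRNA, and these cannot be told apart here, nor can fewer cells and less RNA per cell. The labels do not say which HAP1 clone was used, and marker genes of the line were not checked here.

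Heterogeneous nuclear ribonucleoproteins coat newly made transcripts in the nucleus, where they steer splicing, packaging, export and stability. Most bind single-stranded RNA through RNA recognition motifs, while hnRNP K uses KH domains. Several of them, among them hnRNP A1 and hnRNP K, shuttle to the cytoplasm and act on mRNA decay and translation, and many control the splicing of their own transcripts.

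Library depth ran from 1899854 to 5832366 reads, as worked out from the RPKM steps, and the shallowest library was 4SU+UVA replicate 2. Within a group, log2 values of 2 replicates correlated across genes at r of 0.982 to 0.991. All 10 hnRNP genes passed the filter on low values (1 RPKM in at least 3 libraries), as did 11510 of all genes. Read numbers behind a single hnRNP value ranged from 249 for HNRNPA1 to 20447 for HNRNPA2B1. No library was left out or imputed.

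In untreated cells the footprint density of the family spanned a wide range. HNRNPA2B1 (ENSG00000122566.22), a core packaging and splicing protein, was the densest at 961 ± 3.89 RPKM (SD, n = 3), with 76 of 11510 genes above it. HNRNPD (ENSG00000138668.19), also called AUF1 and known for binding AU-rich elements of short-lived mRNAs, followed at 697 ± 1.33 RPKM. HNRNPF (ENSG00000169813.17) and HNRNPH1 (ENSG00000169045.17), close relatives that bind runs of G, lay at 640.1 ± 9.25 and 483 ± 4.28 RPKM. HNRNPM (ENSG00000099783.12), a splicing regulator, stood between them at 517 ± 3.29 RPKM. HNRNPL (ENSG00000104824.18), which binds CA-rich RNA, was at 386 ± 11.1 RPKM, and HNRNPU (ENSG00000153187.20), the nuclear scaffold attachment factor SAF-A, at 322 ± 1.84 RPKM. HNRNPK (ENSG00000165119.21), which binds C-rich RNA, was at 205 ± 2.78 RPKM, with 442 genes above it.

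The other two were lower. HNRNPC (ENSG00000092199.19), which binds U-rich RNA and packages nascent transcripts, lay at 85.4 ± 6.35 RPKM, and 1138 genes were above it. HNRNPA1 (ENSG00000135486.19), a splicing repressor and close relative of HNRNPA2B1, was the least dense at 33.8 ± 1.89 RPKM, with 2597 of 11510 genes above it. Over the 12 libraries 8 of the 10 averaged at least 100 RPKM, while HNRNPC averaged 96.6 and HNRNPA1 32.7 RPKM. In untreated cells HNRNPC still lay above 90.1% and HNRNPA1 above 77.4% of the 11510 genes. The amount of protein was not measured. RefSeq names 75 pseudogenes after HNRNPA1, 9 after HNRNPC and 5 after HNRNPK, the 3 lowest genes, and 0 to 3 after each of the others. How the authors' counting treated reads that match several copies is not given in the sources used here, so the levels of these genes are uncertain, and its part in them was not tested. Each level also depends on the length of the listed transcript, which was 4121 nt for HNRNPA1, 4501 nt for HNRNPC and 6827 nt for HNRNPU, against 1667 to 3664 nt for the other 7.

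**Figure D1:**
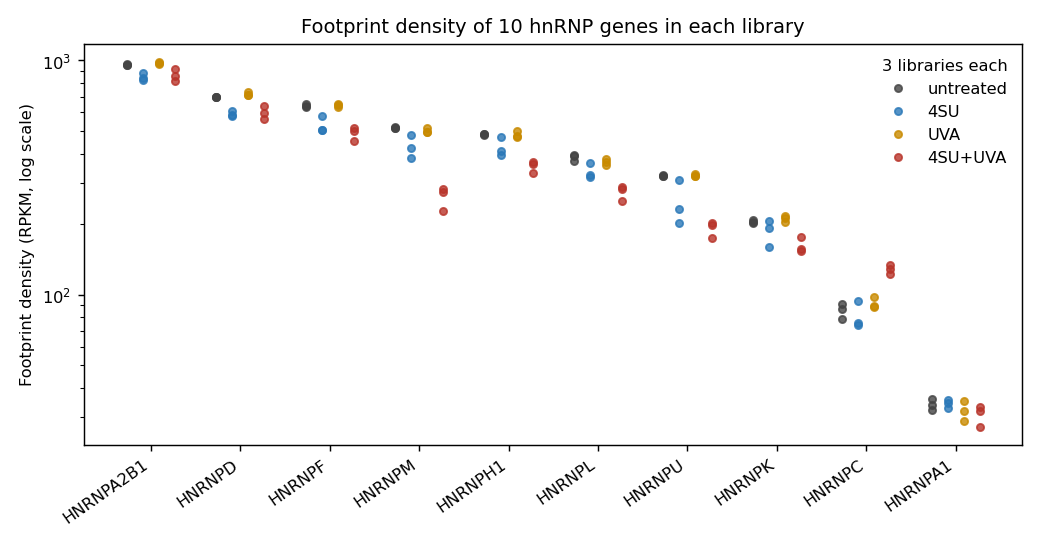
Footprint density in RPKM (log axis) of the 10 hnRNP genes, ordered by their untreated mean, with a point for each of the 3 libraries of a group. HNRNPA2B1 lies near 961 RPKM and HNRNPA1 near 33.8 RPKM in untreated cells, HNRNPM drops toward 262 RPKM with 4SU+UVA, and HNRNPC climbs to 128 RPKM.

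In untreated cells no neighbours in this order overlapped. With 4SU the libraries of HNRNPM and HNRNPH1 overlapped, as did those of HNRNPU and HNRNPK. With UVA only HNRNPM and HNRNPH1 overlapped among neighbours. With 4SU+UVA the order changed: HNRNPM moved from the 4th to the 6th place, behind HNRNPH1 and overlapping with HNRNPL, and HNRNPU overlapped with HNRNPK.

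All 10 symbols matched RefSeq on GRCh38.p14, and the submitters' processing notes name hg38, another name for GRCh38. HNRNPU lies at chr1:244850297-244864543, HNRNPD at chr4:82352498-82373991, HNRNPH1 at chr5:179614178-179634784 and HNRNPA2B1 at chr7:26189927-26200746. HNRNPK lies at chr9:83968083-83980615, HNRNPF at chr10:43385618-43409186, HNRNPA1 at chr12:54280726-54287087 and HNRNPC at chr14:21209147-21269442. HNRNPM and HNRNPL are on the same chromosome, at chr19:8444975-8489114 and chr19:38836370-38852347. The annotated span of HNRNPK overlaps MIR7-1, HNRNPK-AS1 and RMI1, that of HNRNPU overlaps SNORA100 and the predicted protein-coding gene LOC124904588, and those of HNRNPL and HNRNPH1 each overlap a long noncoding RNA gene. Reads there can be shared, since strand use in the counting is not known here.

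Ribosomes load at the 5′ end of an mRNA, so the annotated starts are shown for the 5 members with a single start in the RefSeq promoter table. They include the gene that rose with 4SU+UVA (HNRNPC) and the pair that fell furthest (HNRNPM and HNRNPU). Each line gives 15 bases before the start in lower case and the first 15 transcribed bases in capitals, 5′ to 3′ on the gene's strand.
HNRNPC: cttcgcctcggcggcAGAGGAGACTCGGGG
HNRNPA2B1: agcggctctagcggcAGTAGCAGCAGCGCC
HNRNPU: gcgccgctcctgcgaGAGGACGTTGCGTGC
HNRNPM: gcagcccgttcgctcACACAAAGCCCAGAC
HNRNPD: acgcgccgttcttccGTCGGCCATTTTAGG
They lie at chr14:21269428-21269457, chr7:26200732-26200761, chr1:244864529-244864558, chr19:8444960-8444989 (plus strand, the others minus) and chr4:82373977-82374006 on GRCh38.p14.

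A start with C followed by 4 pyrimidines, the pattern of 5′ terminal oligopyrimidine mRNAs, was found at 0 of the 15 listed starts of 9 members and at 4.07% of all 35116 starts in the table. In the first 50 transcribed bases HNRNPM had 2 T and HNRNPC had 10, where the median of all starts is 10 and the members' starts ranged from 2 to 13. Over the whole 300-base windows, GGGCGG on either strand was in 9 of 15 member windows and 45.0% of all windows, and CCAAT in 9 of 15 and 34.6%. These are descriptions of the letters only. The listed start need not be that of the transcript the authors counted.

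The comparison of 4SU+UVA with untreated cells holds the effects of 18 h of 4SU, of UVA and of any crosslinks together. Footprints on 8 of the 10 hnRNP genes fell, those on HNRNPC rose, and HNRNPA1 did not pass (limma, adjusted p under 0.05, n = 3 per group). Of all 11510 genes tested, 18.4% fell and 40.6% rose. Among the 995 genes with a mean of at least 100 RPKM, 31.0% fell and 43.8% rose, and the 8 hnRNP genes in that class are the 8 that fell. The members' median log2 change was -0.36, against 0.23 for all genes tested and 0.10 for the abundant class. After each library was centred on its own median, 3107 of all genes rose and 2888 fell, and all 10 members passed, 9 lower and HNRNPC higher. The all-gene median was then 0.06 and the members' median -0.53. For 8 members the 4SU+UVA libraries lay wholly below the untreated ones, which was so for 20.2% of all genes.

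HNRNPM fell furthest. Its untreated libraries held 514, 521 and 516 RPKM and its 4SU+UVA libraries 275, 228 and 282 RPKM. The groups were far apart and the 4SU+UVA libraries stood at 53.3%, 44.0% and 54.5% of the untreated mean. The log2 change was -0.99 (SE 0.08, limma adjusted p = 2.9e-07), a 1.98-fold drop, and -1.22 relative to the median gene. Only 3.08% of all genes tested had a lower value.

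HNRNPU, whose protein ties RNA to chromatin, fell next furthest. It went from 320.3, 323.6 and 320.6 RPKM to 203, 174 and 198 RPKM, with no overlap. The log2 change was -0.75 (SE 0.11, limma adjusted p = 4.9e-05), a 1.68-fold drop. HNRNPL fell from 373, 389 and 395 RPKM to 283, 252 and 287 RPKM, also without overlap (log2 -0.49, SE 0.06, limma adjusted p = 1.7e-05). The 3 untreated values of HNRNPL spread more widely than those of HNRNPU, but the gap between its groups was wider than the SD of either.

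The G-run binders changed to a similar degree. HNRNPH1 fell from 487, 485 and 479 RPKM to 360.4, 331 and 367 RPKM (log2 -0.45, SE 0.06, limma adjusted p = 3.6e-05). HNRNPF fell from 636, 634 and 651 RPKM to 517, 451 and 502 RPKM (log2 -0.39, SE 0.06, limma adjusted p = 0.00011). In neither gene did a 4SU+UVA library reach an untreated one. The ratio of HNRNPF to HNRNPH1 (RPKM over RPKM) was 1.32 ± 0.0306 untreated, 1.25 ± 0.0285 under 4SU and 1.34 ± 0.0587 under UVA. After both treatments it was 1.39 ± 0.04 (SD, n = 3 each). Its lowest 4SU+UVA value of 1.363 and highest untreated value of 1.36 nearly met, and the difference was not tested. The 4SU values, 1.23 to 1.28, lay below all untreated and all 4SU+UVA ones, also with no test.

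HNRNPK, HNRNPD and HNRNPA2B1 fell least. HNRNPK moved from 202, 208 and 204 RPKM to 154, 157 and 176 RPKM (log2 -0.33, SE 0.08, limma adjusted p = 0.0027). HNRNPD moved from 696, 698 and 696 RPKM to 638, 562 and 595 RPKM (log2 -0.22, SE 0.05, limma adjusted p = 0.0016). HNRNPA2B1 moved from 965, 960.5 and 957 RPKM to 915, 820.3 and 860.3 RPKM (log2 -0.15, SE 0.05, limma adjusted p = 0.014). The groups did not overlap for any of these, though the closest HNRNPA2B1 libraries were 957 and 915 RPKM. The HNRNPA2B1 call was lost without 4SU+UVA replicate 2, the shallowest library (log2 -0.11, limma adjusted p = 0.052), and without the variance trend (adjusted p = 0.076).

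HNRNPC went the other way. Its untreated libraries held 90.9, 87.0 and 78.4 RPKM and its 4SU+UVA libraries 128, 134 and 123 RPKM, so all 3 treated libraries were above all untreated ones. The share of all genes apart in this direction is not given here. By limma's test 40.6% of all genes rose, and 75.9% of genes tested had a lower change than HNRNPC. The log2 change was 0.59 (SE 0.09, limma adjusted p = 6.1e-05), a 1.5-fold rise and 0.35 above the median gene. It passed in all 21 alternative settings tried, with log2 values of 0.42 to 0.63. Set against HNRNPA2B1, its partner in the core particle, the ratio of RPKM was 0.0889 ± 0.00627 untreated and 0.149 ± 0.0127 after both treatments (SD, n = 3 each), without overlap and with no test.

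HNRNPA1 had the fewest reads of the 10. It held 32.0, 35.8 and 33.8 RPKM in untreated cells and 27.3, 31.8 and 33.2 RPKM with 4SU+UVA, from 249 to 812 reads a library, and the groups overlapped. The log2 change was -0.14 with a 95% interval of -0.34 to 0.06 (limma adjusted p = 0.22). It passed only when libraries were centred on their medians (log2 -0.31, limma adjusted p = 0.012). The interval holds the changes fitted for HNRNPD and HNRNPA2B1 as well as 0.

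**Figure D2:**
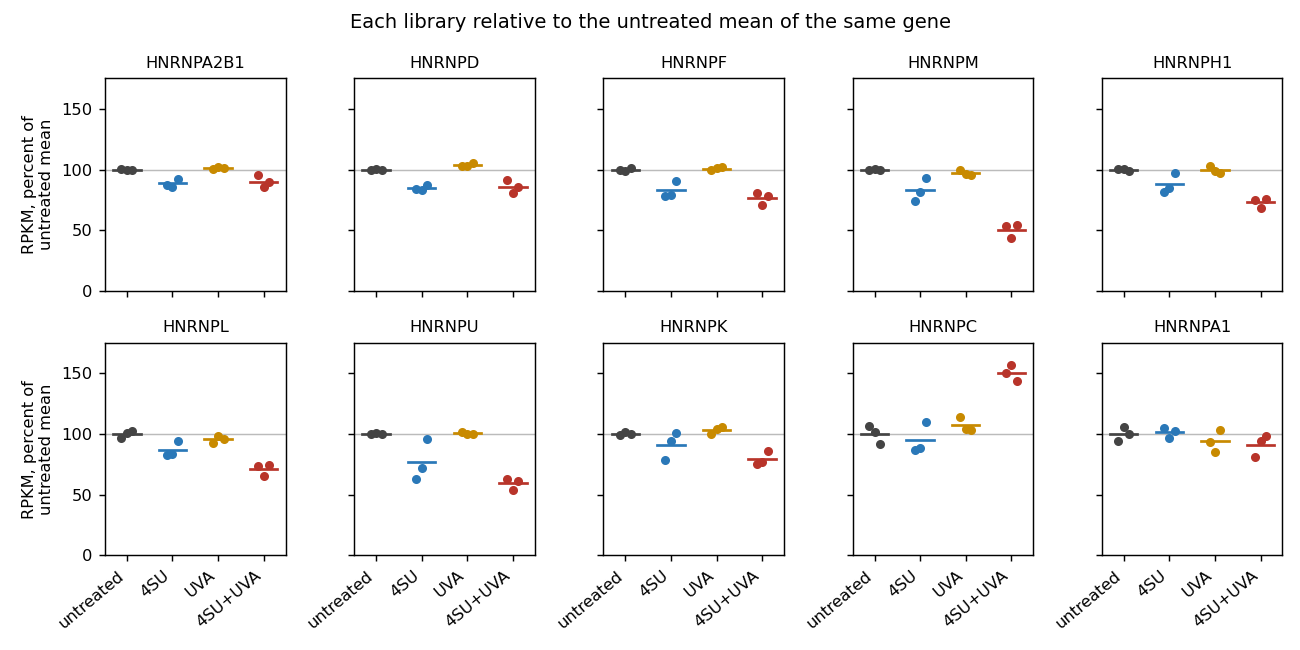
RPKM of each library as a percent of the untreated mean of the same gene, with a point per library (3 a group) and a line at the group mean. HNRNPM falls to between 44.0% and 54.5% with 4SU+UVA, HNRNPC rises above all its untreated libraries, and the 4SU points of HNRNPU are spread widely.

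Giving 4SU without light tests the nucleoside alone. Footprints on 6 of the 10 genes fell (HNRNPA2B1, HNRNPD, HNRNPF, HNRNPL, HNRNPM and HNRNPU) and 0 rose, where 3.12% of all genes fell and 11.3% rose (limma, n = 3 per group). In the abundant class 12.4% fell. With median centring 640 of all genes rose and 1080 fell, against 1295 and 359 on the deposited scaling, and 7 members passed. The members' median log2 change was -0.20, against 0.09 for all genes and -0.02 for the abundant class. For 7 members all 4SU libraries lay below all untreated ones, which was so for 10.1% of genes. HNRNPU had the largest fitted change, at -0.40 (SE 0.11, limma adjusted p = 0.025), and 2.66% of genes tested had a lower one. That value was -0.27 without 4SU replicate 1 (limma adjusted p = 0.11) and -0.57 without 4SU replicate 3 (adjusted p = 0.00037), and the call held in 12 of 21 alternatives. HNRNPU did not pass when only the compared groups were fitted (limma adjusted p = 0.056).

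The 4SU replicates differed from one another in these genes. HNRNPU held 202, 232 and 308 RPKM in replicates 1, 2 and 3, an SD of 54.6 RPKM against 1.84 RPKM in untreated cells. HNRNPM held 383, 422 and 481 RPKM. Replicate 3 gave the highest 4SU value for 9 of the 10 genes, all but HNRNPA1, and replicate 1 the lowest for 7. For HNRNPU, replicate 1 lay at the level of the 4SU+UVA libraries and replicate 3 near the untreated ones.

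HNRNPD and HNRNPA2B1 behaved more evenly. HNRNPD held 587, 582 and 609 RPKM with 4SU, all well below its untreated range (log2 -0.23, SE 0.05, limma adjusted p = 0.0076). HNRNPA2B1 held 839, 826 and 886 RPKM (log2 -0.18, SE 0.05, limma adjusted p = 0.025). HNRNPF, at 503, 505 and 580.5 RPKM, changed by -0.28 (SE 0.06, limma adjusted p = 0.011). HNRNPM changed by -0.28 (SE 0.08, limma adjusted p = 0.038) and HNRNPL, at 317, 323 and 364 RPKM, by -0.21 (SE 0.06, limma adjusted p = 0.045). HNRNPH1 lay at 393, 412 and 471 RPKM, below its untreated libraries, with a change of -0.19 that did not pass (limma adjusted p = 0.064).

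The other 3 did not pass with 4SU alone. HNRNPK held 160, 193 and 206 RPKM, overlapping its untreated range (log2 -0.14, 95% interval -0.32 to 0.03). HNRNPC held 74.1, 75.5 and 93.8 RPKM (log2 -0.08, 95% interval -0.27 to 0.11) and HNRNPA1 35.5, 32.7 and 34.6 RPKM (log2 0.02, 95% interval -0.18 to 0.22). The value of HNRNPA1 turned negative under both other scalings, at -0.11 with median centring and -0.04 with quantile normalization.

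The number of members called with 4SU moved with the libraries used. It was 1 without 4SU replicate 1, 1 without 4SU replicate 2 and 2 when any single untreated library was left out, against 6 with all 12 libraries. Calls of lower genes over the whole table dropped in the same fits, from 359 to between 139 and 189. The members' median change in these fits lay between -0.21 and -0.17, against -0.20. It was also 2 with quantile normalization, 3 with no filter on low values and 0 without the variance trend. The fitted value was below 0 for 9 of 10 genes on the deposited scaling and for 10 of 10 under both other scalings.

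UVA alone moved none of the 10 genes past the threshold (limma, n = 3 per group, smallest adjusted p = 0.84). None had an unadjusted p under 0.05 either, the smallest being 0.27. Calls were rare among all genes too, at 0.278% higher and 0.374% lower, or 32 and 43 genes, with 19 and 48 under median centring and 22 and 20 under quantile normalization. Of the abundant class, 0.10% were higher and 3.82% lower, or 1 and 38 genes. The members' median log2 change was 0.01 and that of all genes 0.05. HNRNPM held 515, 497 and 495 RPKM with UVA and HNRNPU 327, 320.5 and 321 RPKM, overlapping their untreated values. HNRNPA2B1 held 968, 983 and 972 RPKM and HNRNPD 714, 715 and 732 RPKM, in both cases just above all untreated libraries, which was so for 12.8% of genes. Their intervals were narrow, -0.08 to 0.12 for HNRNPA2B1 and -0.06 to 0.15 for HNRNPD on the log2 scale. The widest were those of HNRNPU, -0.23 to 0.24, and HNRNPA1, -0.29 to 0.11. These intervals rest on a spread per gene that is shared by all 4 groups. For HNRNPU it takes in the 4SU libraries (SD 54.6 RPKM), while the untreated and UVA SDs were 1.84 and 3.37 RPKM. On the deposited scaling 4 of 10 values were below 0, with median centring 9 and with quantile normalization 4. HNRNPC stayed above 0 and HNRNPA1, HNRNPM and HNRNPL below 0 under all 3 scalings, and the sign of the other 6 changed with the scaling.

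**Figure D3:**
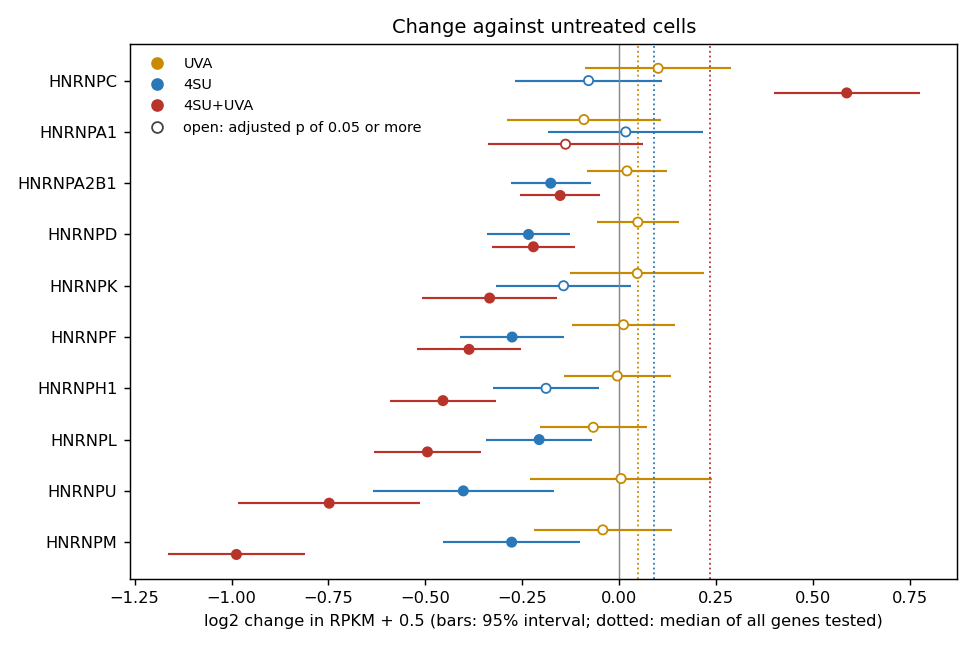
log2 change of RPKM + 0.5 against untreated cells for UVA, 4SU and 4SU+UVA, with 95% intervals, 3 libraries per group. Filled points passed limma's test at an adjusted p of 0.05, and dotted lines mark the median of all genes tested (0.05, 0.09 and 0.23). UVA points sit near 0, HNRNPM is lowest with 4SU+UVA at -0.99 and HNRNPC highest at 0.59.

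Light had unequal effects on these genes once 4SU was present. HNRNPC rose, HNRNPM, HNRNPL, HNRNPH1 and HNRNPU fell, and 5 did not pass (4SU+UVA against 4SU, limma, n = 3 per group). Of all genes 25.0% rose and 19.0% fell. In the abundant class 38.8% rose and 28.8% fell. With quantile normalization 8 members passed, 7 of them lower, where 2599 of 11510 genes fell. The members' median was -0.17 and that of all genes 0.09. HNRNPM went from 383, 422 and 481 RPKM to 275, 228 and 282 RPKM (log2 -0.71, SE 0.08, limma adjusted p = 1.1e-05). HNRNPC went from 74.1, 75.5 and 93.8 RPKM to 128, 134 and 123 RPKM (log2 0.67, SE 0.09, limma adjusted p = 3.5e-05). For both, the groups were apart, though the share of all genes apart in the higher direction is not given here. Of all genes tested, 4.87% had a lower change than HNRNPM and 90.3% a lower one than HNRNPC.

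HNRNPL and HNRNPH1 changed by -0.29 (SE 0.06, limma adjusted p = 0.0023) and -0.27 (SE 0.06, limma adjusted p = 0.004). With HNRNPM they are the 3 members whose 4SU+UVA libraries lay wholly below the 4SU ones, which was so for 21.4% of genes. HNRNPU changed by -0.35 (SE 0.11, limma adjusted p = 0.019), but its groups overlapped, since 4SU replicate 1 at 202 RPKM lay under 4SU+UVA replicate 1 at 203 RPKM. The HNRNPU call was lost without 4SU replicate 3 (log2 -0.18, limma adjusted p = 0.071) and without 4SU+UVA replicate 2 (log2 -0.28, adjusted p = 0.081). It was also lost without the variance trend (limma adjusted p = 0.052) and on the compared groups alone (adjusted p = 0.055). The call held in 17 of 21 alternatives.

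HNRNPA2B1 and HNRNPD, both lower with 4SU alone, lay near 0 in this comparison. HNRNPA2B1 lay at 0.02 (95% interval -0.08 to 0.13) and HNRNPD at 0.01 (95% interval -0.09 to 0.12). These values depend on the scaling, since quantile normalization gave -0.21 (limma adjusted p = 0.003) and -0.17 (limma adjusted p = 0.002). HNRNPF lay at -0.11 (95% interval -0.24 to 0.02), HNRNPA1 at -0.16 (-0.36 to 0.04) and HNRNPK at -0.19 (-0.36 to -0.02, limma adjusted p = 0.069). HNRNPK passed without 4SU replicate 1 (log2 -0.30, limma adjusted p = 0.0034), without 4SU+UVA replicate 3 (log2 -0.25, adjusted p = 0.034), and with median centring (log2 -0.24, adjusted p = 0.045).

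The effect of 4SU in irradiated cells, 4SU+UVA against UVA, gave 8 lower members and 1 higher, where 19.8% of all genes fell and 34.7% rose (limma, n = 3 per group). In the abundant class 32.0% fell and 41.2% rose. With quantile normalization 2900 genes rose and 2820 fell, against 3989 and 2278, and 9 members passed there too. It shares its 4SU+UVA libraries with the comparison against untreated cells, so it is no independent repeat of it. HNRNPM was lowest at -0.95 (SE 0.08, limma adjusted p = 4.3e-07), then HNRNPU at -0.75 (SE 0.11, adjusted p = 5.3e-05). HNRNPC was higher by 0.49 (SE 0.09, limma adjusted p = 0.00035) and HNRNPA1 did not pass at -0.05 (95% interval -0.25 to 0.15). The other 6 lay between -0.45 for HNRNPH1 and -0.17 for HNRNPA2B1. For 8 members the 4SU+UVA libraries were wholly below the UVA libraries, which was so for 21.5% of genes.

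An interaction term asked whether the joint treatment departed from the sum of its parts on the log2 scale. It takes the change from 4SU to 4SU+UVA and subtracts the change from untreated to UVA. HNRNPC lay above the sum by 0.57 (SE 0.12, limma adjusted p = 0.0043). HNRNPM lay below it, at -0.67 (SE 0.12, limma adjusted p = 0.00088), and so did HNRNPH1 at -0.26 (SE 0.09, limma adjusted p = 0.049). That is 1 member higher and 2 lower, where 10.7% of all genes were higher and 14.1% lower. In the abundant class 27.6% were higher and 23.6% lower. The members' count was near the share of all genes and not above that of the abundant class. HNRNPC and HNRNPM passed in all 20 alternatives tried and HNRNPH1 in 6. With quantile normalization 7 members passed, 1 higher and 6 lower, where 1288 of 11510 genes were higher and 1648 lower. The HNRNPH1 call was lost in the other 14, with limma adjusted p of up to 0.13.

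The other 7 did not pass. HNRNPU was at -0.35 with a wide interval of -0.68 to -0.02 (limma adjusted p = 0.11), and it passed without 4SU replicate 1 (log2 -0.49, limma adjusted p = 0.015), as did HNRNPK (log2 -0.34, adjusted p = 0.014). HNRNPL was at -0.22 (limma adjusted p = 0.091) and HNRNPK at -0.24 (limma adjusted p = 0.15). HNRNPA2B1 lay at 0.00 (95% interval -0.14 to 0.15) and HNRNPD at -0.04 (-0.19 to 0.11). For HNRNPF the value was -0.12 (-0.31 to 0.07) and for HNRNPA1 -0.06 (-0.35 to 0.22). Quantile normalization turned HNRNPA2B1 to -0.26 (limma adjusted p = 0.013) and brought HNRNPD to -0.27 (limma adjusted p = 0.002).

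**Figure D4:**
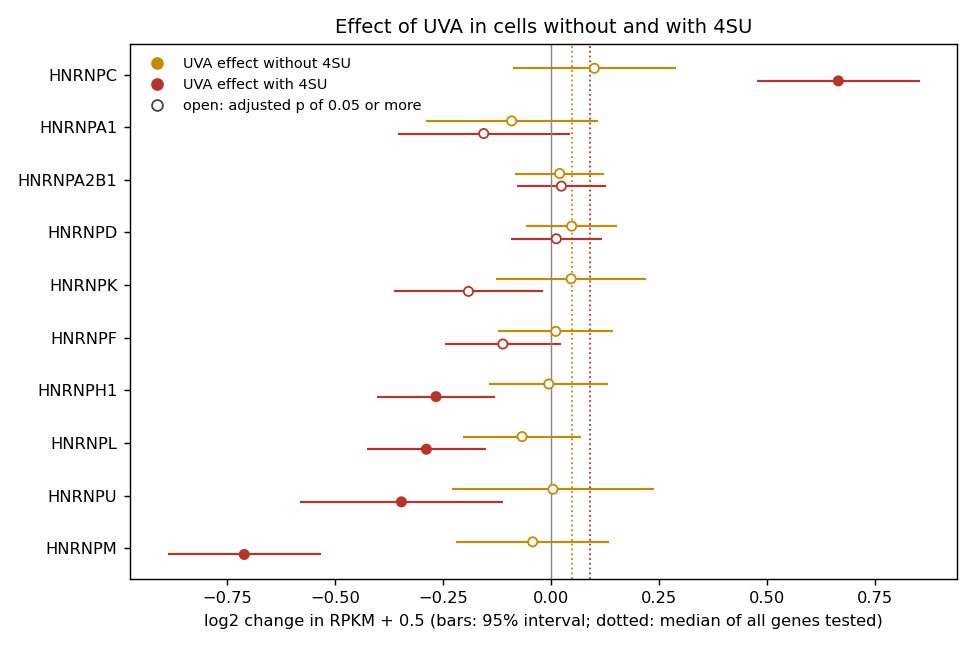
log2 change of RPKM + 0.5 with UVA in cells without 4SU (UVA against untreated) and with 4SU (4SU+UVA against 4SU), with 95% intervals, 3 libraries per group. Filled points passed limma's test at an adjusted p of 0.05, and dotted lines mark the median of all genes tested (0.05 and 0.09). HNRNPC and HNRNPM move in opposite directions with 4SU, at 0.67 and -0.71, while the points of HNRNPA2B1 and HNRNPD lie near 0 in both comparisons.

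Summed over the 10 genes, footprints took 1.258%, 1.264% and 1.257% of reads in the untreated libraries and 1.269%, 1.265% and 1.265% with UVA. The share was 0.999%, 1.039% and 1.183% with 4SU and 1.016%, 0.915% and 0.993% with 4SU+UVA. The 6 libraries from cells with 4SU were below all 6 from cells without it. The sum is dominated by its densest members, and it carries no test.

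Across the 12 libraries, log2 values of 8 members rose and fell together, from r = 0.69 between HNRNPA2B1 and HNRNPM to r = 0.98 between HNRNPU and HNRNPH1. HNRNPC ran against all 9 others, from r = -0.77 with HNRNPM to r = -0.20 with HNRNPA2B1. HNRNPA1 followed none closely, with r from -0.50 to 0.34. These describe 12 libraries that share depth and treatment and carry no test. HNRNPM also parted from HNRNPL, with an RPKM ratio of 1.34 ± 0.0351 untreated, 1.28 ± 0.0631 under 4SU, 1.37 ± 0.0698 under UVA and 0.953 ± 0.0435 under both (SD, n = 3 each). Its 4SU+UVA values were below those of every other library. Across the 10 genes the 4SU+UVA change was weakly related to transcript length (Spearman rho = 0.25) and to untreated level (rho = -0.22), descriptions over 10 genes only. HNRNPC and HNRNPU, which have the longest transcripts, moved in opposite directions.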

How the data were processed

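The values are RPKM as the authors deposited them, in 1 table with an Ensembl gene and transcript identifier per line. STAR 2.7.10a and hg38 appear in the submitters' processing notes. How reads were counted and filtered is not stated in the sources used here. Groups and replicate numbers came from the sample titles, and no batch is labelled. The RPKM steps gave library totals, transcript lengths and read numbers, with every positive value whole within 0.001 reads. PCR reads without molecular identifiers are not independent molecules.

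Differences were tested with limma 3.58.1 under R 4.3.3 (lmFit, then eBayes with trend) on log2(RPKM + 0.5), the scale of all fold changes. A single model of 4 groups over 12 libraries covered the 11510 genes that reached 1 RPKM in 3 libraries or more. Two-sided p-values were adjusted by Benjamini-Hochberg over all these genes, and calls were made at 0.05. Recovery and fit were tested on simulated data. Alternatives were other pseudocounts, filters, scalings and variance models, fits on the compared groups alone, a replicate block and leaving out each library.

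The members, lists and tests were chosen with earlier results of these data known. All 10 members are named in each comparison. Their symbols came with the member list. As 0 of the identifiers matched the RefSeq gene table, a wider list of 43 RNA-binding protein genes and 15 cell markers were not analysed here. Locations and starts were matched by symbol.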

Additional observations from a re-analysis of the deposited data

Results flagged for a closer look

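The effect of UVA differed between cells with and without 4SU at 3 of the 10 genes, by the test of the interaction (limma, 12 libraries, Benjamini-Hochberg over 11510 genes). Of all genes tested 10.7% were higher and 14.1% lower by this test. Among genes with a mean of at least 100 RPKM, 27.6% were higher and 23.6% lower. With 1 higher and 2 lower of 10, the members were near the first shares and not above the second. The count therefore does not set them apart from other genes. HNRNPC differed by 0.57 on the log2 scale, with UVA effects of 0.67 with 4SU and 0.10 without. HNRNPM differed by -0.67, with effects of -0.71 and -0.04. HNRNPH1 differed by -0.26, with effects of -0.27 and 0.00, and its adjusted p of 0.049 was close to the threshold. All 4SU+UVA libraries lay below all 4SU libraries for HNRNPM, as for 21.4% of genes. They lay above them for HNRNPC, a direction for which the share of all genes is not given here.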

How the results depend on the processing

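Over 60 gene results and their alternatives, 1141 of 1250 values kept their direction and their side of the threshold. In 61 the call was lost, in 14 one was gained with the sign kept and in 34 the sign changed, 0 of these where the first value had passed. In 3 of the 34 the alternative passed, all with quantile normalization. These were HNRNPA2B1 and HNRNPD in 4SU+UVA against 4SU and the HNRNPA2B1 interaction. Many alternatives leave the fitted value as it is, so only the call could move there. These are the filters, the variance model, the replicate block, the compared groups alone and leaving out a library outside the comparison. The replicate numbers did not pair the libraries, with r of -0.046 to 0.068 over 18 same-numbered pairs and 5 of 12 libraries closest to their own number. With the replicate block, 9, 6, 0, 6, 9 and 2 members passed, against 9, 6, 0, 5, 9 and 3 without (in the order 4SU+UVA, 4SU and UVA against untreated, 4SU+UVA against 4SU and against UVA, interaction). The block gained HNRNPK in 4SU+UVA against 4SU (limma adjusted p = 0.040) and lost the HNRNPH1 interaction (adjusted p = 0.056).

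For 4SU against untreated, 3 members passed with no filter, 2 with quantile normalization, 0 without the variance trend and 1 to 7 with a library left out. Quantile normalization gave 8 for 4SU+UVA against 4SU, 1 higher and 7 lower, where 2360 of 11510 genes rose and 2599 fell. It gave 7 for the interaction, 1 higher and 6 lower, where 1288 genes were higher and 1648 lower. Leaving out a library gave 2 to 5 for the interaction, the highest without 4SU replicate 1. The causes were not tested.

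Median centring turned HNRNPA1 with 4SU to -0.11 and, with UVA, HNRNPA2B1 to -0.061, HNRNPK to -0.035, HNRNPU to -0.076, HNRNPD to -0.033 and HNRNPF to -0.070. In 4SU+UVA against 4SU it turned HNRNPA2B1 to -0.021 and HNRNPD to -0.032, and the HNRNPD interaction to 0.00086. Quantile normalization turned HNRNPA1 with 4SU to -0.040 and, with UVA, HNRNPU to -0.011 and HNRNPH1 to 0.045. It turned 4SU+UVA against 4SU to -0.21 for HNRNPA2B1 and -0.17 for HNRNPD, and the interaction to 0.00788 for HNRNPA1 and -0.26 for HNRNPA2B1. The cause was not tested.

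Leaving out a library changed the sign of small values. HNRNPA1 ranged from -0.022 to 0.057 with 4SU, from -0.118 to 0.035 in 4SU+UVA against UVA and from -0.135 to 0.018 in the interaction. With UVA, HNRNPU ranged from -0.00364 to 0.00977 and HNRNPH1 from -0.029 to 0.012. In 4SU+UVA against 4SU, HNRNPA2B1 ranged from -0.017 to 0.062 and HNRNPD from -0.034 to 0.057, and in the interaction from -0.037 to 0.042 and from -0.083 to 0.0083. HNRNPA1 had the fewest reads, 249 to 812 a library, and the part of depth in these changes was not tested.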
